A study of Mus musculus with 36 samples.

Results

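The Hox genes were examined as 4 clusters, Hoxa, Hoxb, Hoxc and Hoxd, in mouse liver. All protein-coding genes whose symbols start with Hoxa, Hoxb, Hoxc or Hoxd in the mm9 annotation were taken, which gave 39 genes of 21327 on the autosomes. There were 11 in Hoxa on chromosome 6, 10 in Hoxb on chromosome 11, 9 in Hoxc on chromosome 15 and 9 in Hoxd on chromosome 2. Every CpG in the count files from 5 kb upstream of a gene to 1 kb past its end was included, and these stretches were read in 500-bp windows. There were 790 windows that held a CpG. The 581 of them with 5 or more CpGs and 30 or more counts in every animal were tested, while 207 had too few CpGs and 2 too few counts.

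Hox genes encode homeodomain transcription factors that give cells their position along the body axis. Within a cluster the genes lie in the order in which they are used from head to tail, and genes with the same number in different clusters are called paralogs. Where the clusters are silent they are commonly covered by Polycomb repressive complexes, which modify histones. Such chromatin often carries little DNA methylation, also outside CpG islands, the short CpG-dense stretches that hold many promoters.

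DNA methylation was measured by whole-genome bisulfite sequencing of liver from 24 mice, 3 in each of 8 groups. Parents were C57BL/6N (B6) or C3H/HeN (C3) sires and dams, which are inbred strains, and their F1 offspring were sons and virgin daughters of B6 dams and C3 sires (B6C3F1) or of C3 dams and B6 sires (C3B6F1). The parents had been mated when 10 weeks old, the litters were weaned at week 16, and every animal was sacrificed at 20 weeks. The dams had thus borne and nursed litters and the daughters had not. Parents and offspring came from the same families, which were not used in the tests. Dams and daughters also differ in their genomes and generation, and these cannot be told apart from breeding. In whole liver a change within cells cannot be told apart from a change in the mixture of cells.

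The autosomal depth was 19.4 to 32.8 reads per CpG, and the depth in the Hox clusters 13.2 to 26.9. Promoters of the 8 hepatocyte markers, among them Alb and Ttr, had 16.9% to 27.1% methylation as means of 24 animals, while those of 4 leukocyte markers had 75.4% to 87.3%. Promoters of 4 stellate cell markers had 0.609% to 23.6%, of 4 biliary markers 0.677% to 68.7%, of 4 endothelial markers 2.24% to 74.4% and of 3 Kupffer cell markers 76.6% to 87.9%, so a low promoter was not particular to the hepatocyte markers. The library labelled C3B6F1 son 1 stood apart, with a chromosome X depth of 0.600 of the autosomal depth against 0.492 to 0.521 in the other F1 sons. The alternatives include the window fits and the cluster tests without it, but not the cluster tests with the autosomal percentage subtracted.

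The range of methylation at Hox promoters can be seen in the 250 bases before the annotated starts of Hoxd13, a gene of digit patterning with the lowest promoter methylation, and of Hoxc4, with the highest. The lines give the mm9 sequence from 5′ to 3′ on the strand of the gene, with CG in capitals. The first is chr2:74506117-74506366 and the second chr15:102849117-102849366, both on the plus strand, and neither overlaps an annotated exon.
Hoxd13: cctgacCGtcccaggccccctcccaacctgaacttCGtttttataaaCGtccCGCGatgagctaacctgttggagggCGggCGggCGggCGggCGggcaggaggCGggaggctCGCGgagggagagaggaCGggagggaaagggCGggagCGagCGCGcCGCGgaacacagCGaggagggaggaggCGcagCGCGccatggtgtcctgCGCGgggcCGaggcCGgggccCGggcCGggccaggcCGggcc
Hoxc4: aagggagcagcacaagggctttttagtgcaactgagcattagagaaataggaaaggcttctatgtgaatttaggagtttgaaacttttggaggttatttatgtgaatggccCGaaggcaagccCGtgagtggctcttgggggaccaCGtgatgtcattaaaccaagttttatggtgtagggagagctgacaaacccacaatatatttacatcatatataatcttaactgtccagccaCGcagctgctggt
The Hoxd13 stretch holds 31 CG and the Hoxc4 stretch 4, against a median of 9 over the same bases of all 21327 genes and of 11 over the 39 Hox genes. Over these bases methylation was 4.28% ± 1.57 (SD, n = 24) in Hoxd13 and 24.8% ± 10.8 in Hoxc4. The level within the Hoxd13 stretch was uneven. In its run of CGgg repeats the CG at base 86 had 41.4% in 29 counts of the 6 B6 parents and 44.4% in 18 counts of the 6 C3 parents. The next CG on either side, at bases 82 and 90, had 3.70% to 10.5% in 19 to 31 counts per strain. So few counts measure a single CG weakly.

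The Hox clusters carried little methylation in every animal. Weighted methylation is the share of methylated counts among all counts on the CpGs of a cluster. It was 13.5% ± 0.60 (SD, n = 24) in Hoxb, 12.3% ± 0.60 in Hoxa, 10.6% ± 0.61 in Hoxd and 8.77% ± 0.55 in Hoxc. Single animals ran from 12.4% to 14.6% in Hoxb, from 11.01% to 13.7% in Hoxa, from 9.64% to 11.9% in Hoxd and from 7.96% to 9.89% in Hoxc. The autosomes as a whole held 75.0% to 77.5%. Of 23819 autosomal stretches of 100 kb, 4 were below 20%.

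The order Hoxb, Hoxa, Hoxd, Hoxc held in 24 of 24 animals for each of the 6 pairs of clusters. Within an animal Hoxb exceeded Hoxc by 4.70 ± 0.76 percentage points (SD, n = 24), and the closest pair, Hoxa minus Hoxb, differed by -1.18 ± 0.40. Each of the 6 pairs had an adjusted p of 1e-05 in a sign-flip permutation test over animals, two-sided, which is the smallest that 100000 resamples can give. The order of Hoxa and Hoxb depended on the CpGs counted. On CpGs within gene bodies alone Hoxa minus Hoxb was 1.32 points. Hoxc minus Hoxd was -0.68 points there, with Hoxc the higher in 2 animals. On windows with at least 5 CpGs Hoxa minus Hoxb was -0.69 and Hoxc minus Hoxd -0.65, each reversed in 1 animal. CpGs outside promoters and gene bodies had 18.0% ± 0.98 in Hoxb and 10.5% ± 0.60 in Hoxa.

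**Figure D1:**
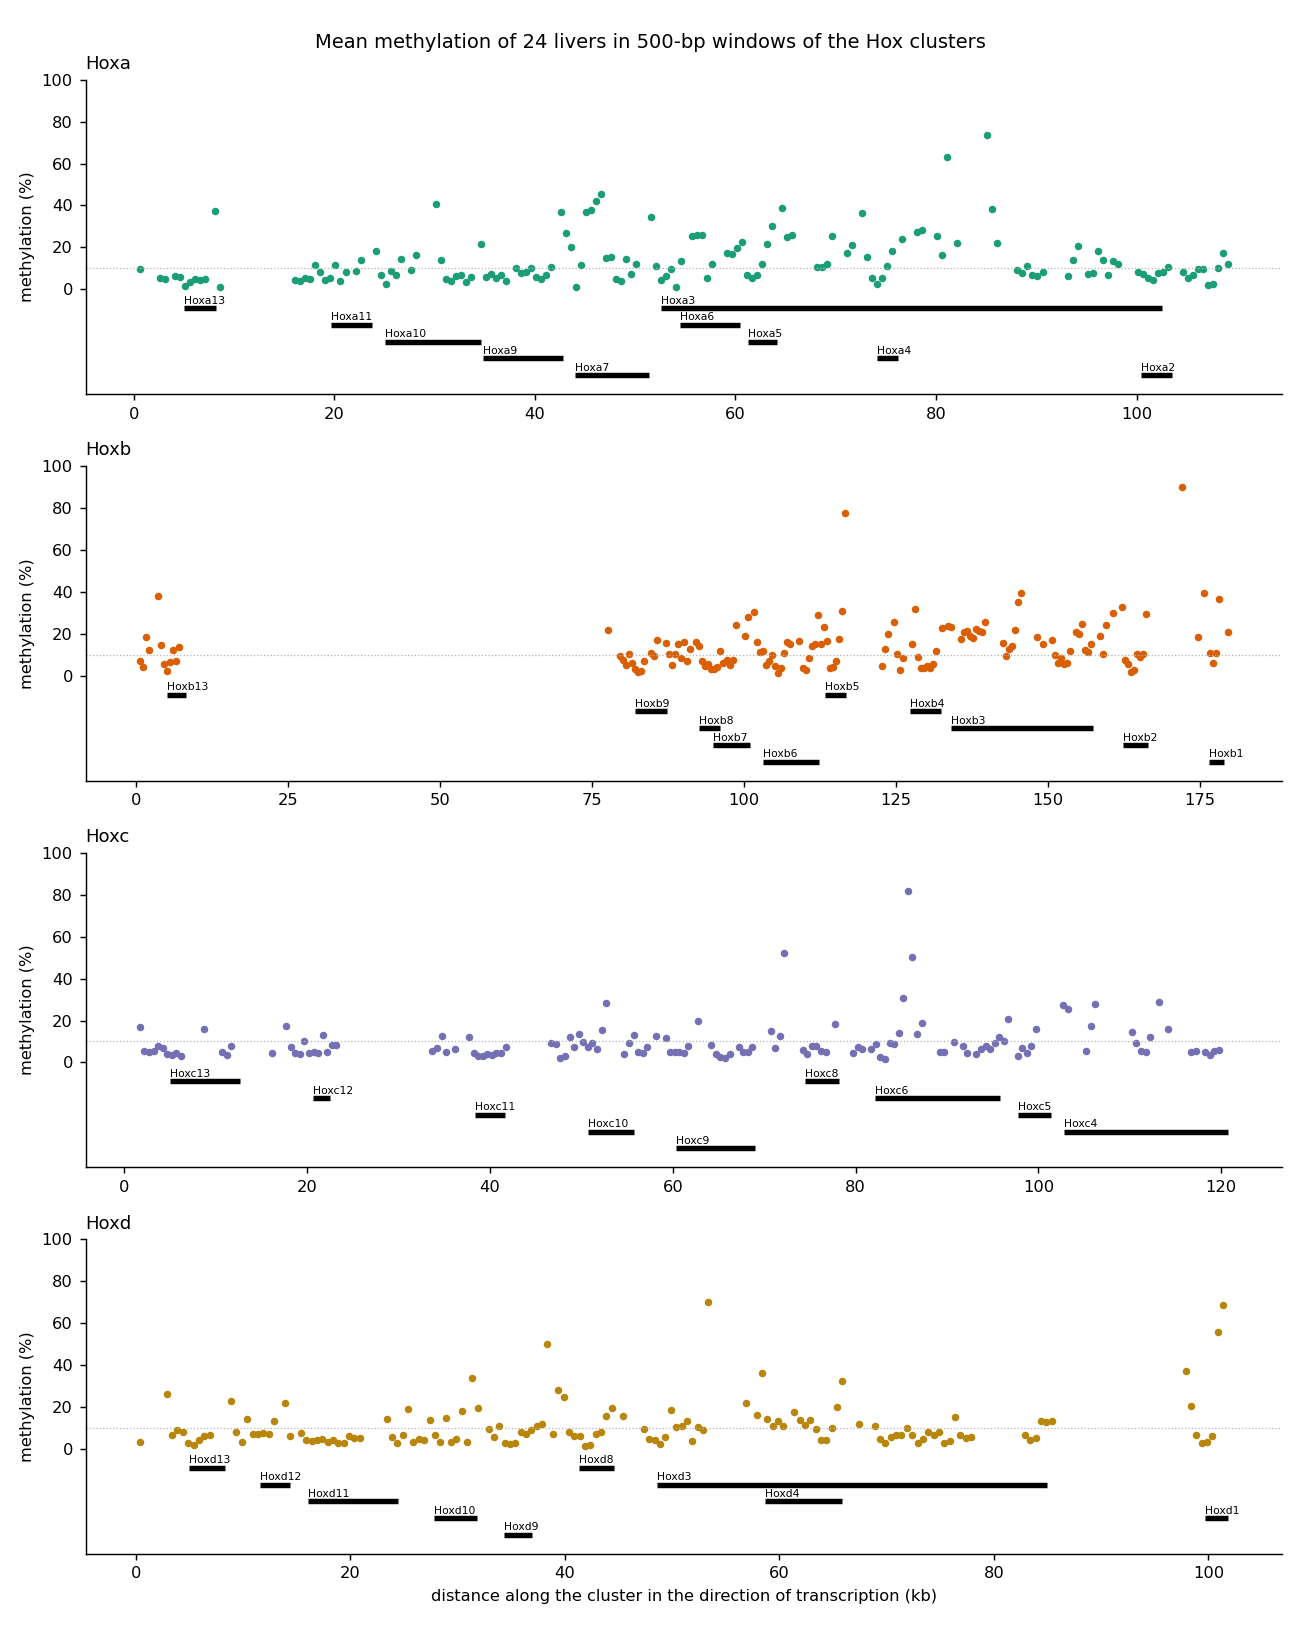
Mean methylation of the 24 livers (vertical axis, %) in each tested 500-bp window, against distance along each cluster in the direction of transcription (kb), with 38 of the 39 genes as bars and a dotted line at 10%. Most windows are low, with 330 of 581 below 10% and 10 at 50% or more.

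Low methylation reached well beyond the gene starts. Of the 581 windows, 330 (56.8%) had less than 10%, 241 had 10% to 50% and 10 had 50% or more. The share below 10% was 73.4% in Hoxc, 62.9% in Hoxd, 52.6% in Hoxa and 40.0% in Hoxb. The longest unbroken run below 10% measured 7000 bp with 329 CpGs, at chr2:74515501-74522500, from the end of Hoxd12 into Hoxd11, genes of limb patterning. The longest run of Hoxa measured 5500 bp, at and upstream of Hoxa13. That of Hoxc measured 5000 bp across the start of Hoxc6, and the longest of Hoxb were 3000 bp.

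The 10 windows at 50% or more had 5 to 11 CpGs each. The highest, at 90.2%, lay at chr11:96222501-96223000, 4315 bp before the start of Hoxb1, a gene of the hindbrain. Others were an 81.8% window in an intron of Hoxc6, a 77.5% window overlapping an exon of Hoxb5 and a 70.0% window in an intron of Hoxd3. A pair of adjoining windows in Hoxd1 had 55.7% and 68.6%.

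The clusters departed from the genome in how methylation went with CpG content. In windows with 5 to 9 CpGs the median was 15.6% over 173 Hox windows and 85.8% over 1151553 autosomal windows. In windows with 10 to 14 CpGs the medians were 10.1% and 87.1%. In windows with 30 or more CpGs they were 4.10% over 77 Hox windows and 0.533% over 21795 autosomal windows. At 20 to 29 CpGs they were 6.09% and 25.4%. The Hox median was thus the lower up to 29 CpGs and the higher only at 30 or more. Even there 93.5% of Hox windows had less than 10%, against 87.7% of autosomal windows. At 50% or more were 0 of these Hox windows and 7.77% of the autosomal windows. At 5 to 9 CpGs Hoxc had the lowest median, 9.57%, and Hoxa the highest, 19.6%.

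**Figure D2:**
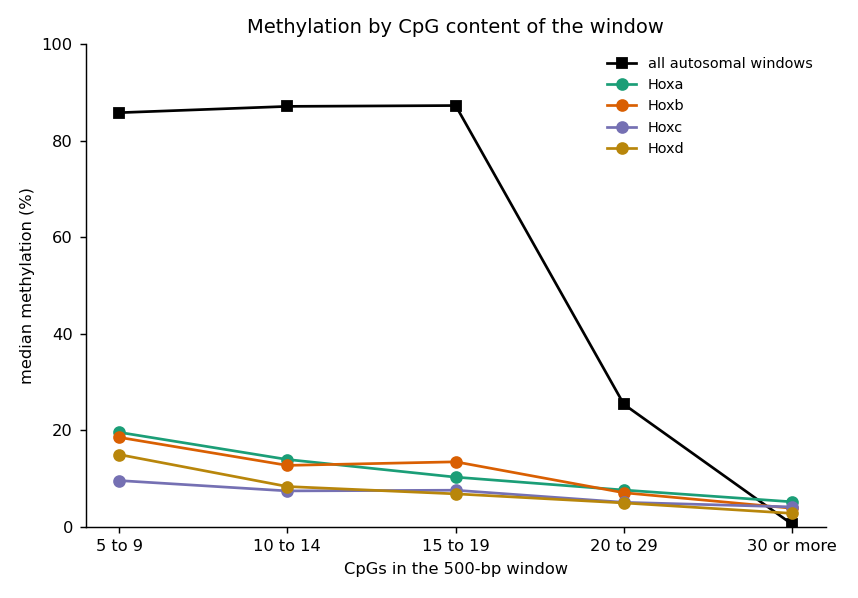
Median methylation (vertical axis, %) of 500-bp windows by the number of CpGs they hold, for all autosomal windows and for each Hox cluster. The autosomal median is 85.8% at 5 to 9 CpGs and 0.533% at 30 or more, while the medians of the clusters lie between 2.78% and 19.6%.

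Gene regions, from 5 kb upstream to 1 kb past each gene, showed the low level gene by gene. The median over the 39 Hox genes was 10.5%, with a range of 5.27% to 29.2%, and over 21128 genes with enough counts it was 72.7%. No Hox gene region reached 50%, while 87.6% of all gene regions did. Neighbouring regions overlap, so the 39 values share CpGs. Hoxa3, Hoxb3 and Hoxd3 have long annotated transcripts, and Hoxa3 and Hoxd3 span neighbouring Hox genes.

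Over the 4 clusters together, gene regions tended to be more methylated at genes with low numbers, which are used toward the head. The median was 12.6% over the 23 genes numbered 1 to 8 and 7.85% over the 16 numbered 9 to 13. Spearman's rho between gene number and gene-region methylation was -0.69 across the 39 overlapping regions, given as a description, and -0.35 for promoters. In Hoxa each gene from Hoxa3 to Hoxa7 exceeded each from Hoxa9 to Hoxa13. An exception was Hoxa2, which had 9.03% ± 1.39 (SD, n = 24), below Hoxa9 and Hoxa10. Hoxd1 and Hoxb1 had the highest gene regions, at 29.2% ± 2.79 (SD, n = 24) and 27.7% ± 2.04.

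The other extremes of each cluster lay closer together. In Hoxd the second highest gene region was Hoxd4 at 17.9% ± 1.44, and the lowest were Hoxd11 at 6.42% ± 0.51 and Hoxd9 at 6.98% ± 0.62. In Hoxb, Hoxb3 followed Hoxb1 at 16.5% ± 1.15, and the lowest were Hoxb9 at 7.96% ± 0.74 and Hoxb8 at 8.65% ± 0.60. In Hoxa the highest were Hoxa7 at 15.5% ± 0.99 and Hoxa5 at 14.8% ± 1.38, and the lowest Hoxa11 at 7.55% ± 0.50 and Hoxa13 at 8.40% ± 0.73. In Hoxc the highest were Hoxc4 at 11.7% ± 1.19 and Hoxc6 at 10.99% ± 0.66, and the lowest Hoxc11 at 5.27% ± 0.46 and Hoxc12 at 6.75% ± 0.55. The ends of each cluster's order were further apart than the SD between animals, while the 2 highest of Hoxa, the 2 highest of Hoxc, the 2 lowest of Hoxb and the 2 lowest of Hoxd differed by less than the larger SD of the pair.

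Promoters, taken as 500 bp on either side of the annotated start, had a median of 6.14% over the 39 Hox genes and 5.06% over 19101 genes. No Hox promoter reached 50%, while 28.4% of all promoters did. Of the Hox promoters 30 of 39 (76.9%) had less than 10%, against 58.8% of all promoters. They were 10 of 11 in Hoxa, 8 of 9 in Hoxc, 8 of 9 in Hoxd and 4 of 10 in Hoxb. The highest were Hoxc4 at 26.0% ± 5.47 (SD, n = 24), Hoxb3 at 24.1% ± 4.79, Hoxd4 at 23.9% ± 4.40 and Hoxb5 at 21.6% ± 3.74. Only the start at the outer end of each gene's annotated span was used, so any start further inside was not read. Runs below 10% lay inside Hoxc4 (chr15:102864501-102866500), Hoxb3 (chr11:96201501-96204000) and Hoxd4 (chr2:74564501-74566000). The lowest were Hoxd13 at 2.41% ± 0.49, Hoxb9 at 2.82% ± 0.72, Hoxd3 at 2.96% ± 0.74 and Hoxb7 at 3.05% ± 0.90.

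In Hoxa the highest promoters were Hoxa9 at 11.9% ± 2.57 and Hoxa2 at 7.47% ± 2.70, and a low value was found at Hoxa4, with 3.35% ± 0.52. In Hoxc the second highest was Hoxc5 at 8.67% ± 1.60, and the lowest were Hoxc11 at 3.71% ± 0.62 and Hoxc13 at 3.85% ± 0.84. In Hoxd the second highest was Hoxd12 at 7.54% ± 1.06. The promoters with the most methylation had few CpGs, 13 in Hoxd4, 15 in Hoxb3 and 17 in Hoxc4, against 118 in Hoxd13 and 90 in Hoxb9. Spearman's rho between the number of CpGs and promoter methylation was -0.82 across the 39 genes, as a description.

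**Figure D3:**
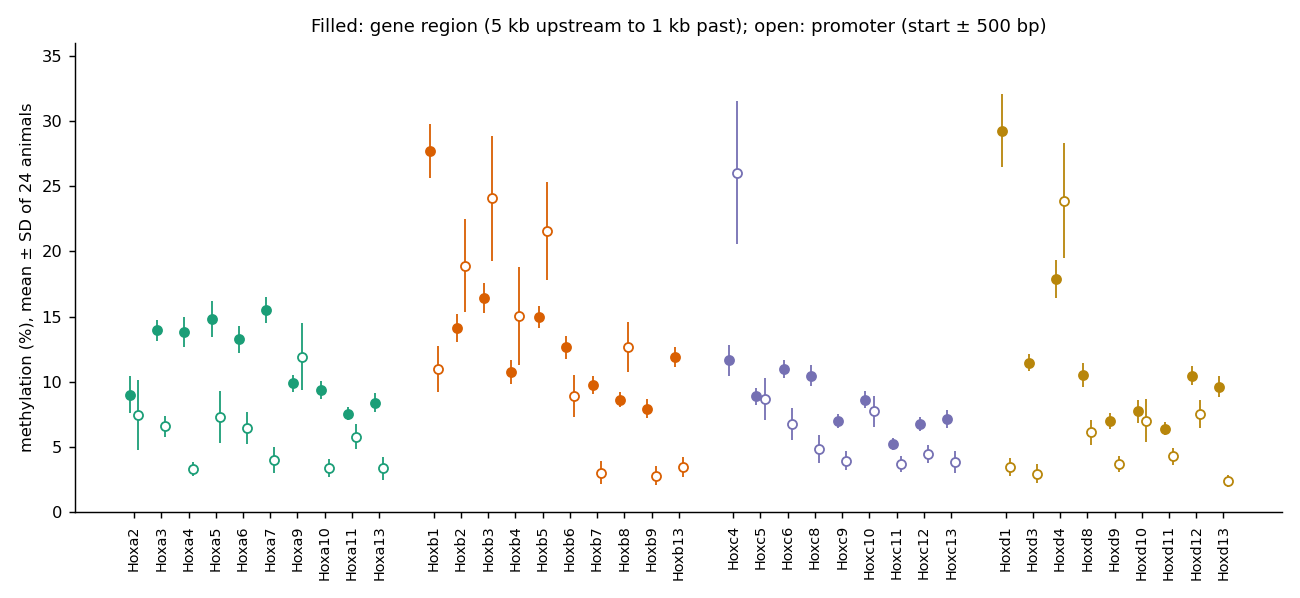
Methylation (vertical axis, %, mean ± SD of 24 animals) of the gene region (filled circles) and the promoter (open circles) of 38 of the 39 Hox genes, by cluster. Hoxd1 and Hoxb1 have the highest gene regions, at 29.2% and 27.7%, and Hoxc4, Hoxb3 and Hoxd4 the highest promoters.

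Strain was compared between the 6 B6 and the 6 C3 parents. Hox gene regions that differed were higher in C3, by small amounts and mostly in Hoxc. At an adjusted p below 0.05 (limma, Benjamini-Hochberg over all genes) 11 of 39 gene regions differed, and all 11 were higher in C3. The background was 28% of all gene regions, or 23.8% higher in C3, so the Hox count is near it. No Hox gene region differed by at least 10 points, as 0.516% of all regions did, and 15 had an unadjusted p below 0.05, against 39.6% of all regions. The median difference, B6 minus C3, was -0.68 points over the Hox genes and -0.96 over all genes.

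By cluster, 8 of 9 gene regions of Hoxc were higher in C3 at an adjusted p below 0.05, against 1 of 11 in Hoxa, 0 of 10 in Hoxb and 2 of 9 in Hoxd. The share over all gene regions was 23.8%. The Hoxc regions from Hoxc10 to Hoxc4 form an unbroken stretch and share CpGs, so they are not separate results. The median difference was -1.19 points in Hoxc and -0.96 over all genes. Among the regions that passed, the largest difference was at Hoxc4. There B6 had 10.8% ± 0.66 (SD, n = 6) and C3 13.1% ± 1.17 (limma, log2 ratio difference -0.31, SE 0.067, adjusted p = 0.00158). Hoxc13, which is needed for hair and nails, had 5.88% to 7.29% in B6, with a median of 6.36%, and 7.31% to 8.07% in C3, with a median of 7.80%, without overlap. Hoxc8, a gene of the trunk, had 9.75% ± 0.69 in B6 and 11.4% ± 0.45 in C3, also without overlap. In Hoxd the genes were Hoxd10, with 7.11% ± 0.48 and 8.84% ± 0.71, and Hoxd11, with 6.10% ± 0.38 and 6.93% ± 0.19, both genes of limb patterning. In Hoxa the gene was Hoxa10, with 8.87% ± 0.56 and 9.93% ± 0.39. In 3 gene regions of Hoxc and 2 of Hoxd the lowest C3 parent exceeded the highest B6 parent, as it did in 8.79% of all gene regions.

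As a whole, Hoxc had 8.23% ± 0.33 in B6 and 9.51% ± 0.27 in C3 (SD, n = 6). The B6 parents had 7.96% to 8.75% and the C3 parents 9.25% to 9.89%, without overlap, and the 12 F1 animals had 8.28% to 9.28% with a mean of 8.67%. The difference of -1.28 points had p = 0.00216 in an exact permutation test, two-sided, the smallest this design allows, and an adjusted p of 0.0606 over 28 tests. The lowest C3 parent exceeded the highest B6 parent in 9.22% of the 100-kb stretches of the autosomes. The autosomes had 76.04% ± 0.80 in B6 and 76.95% ± 0.35 in C3 (SD, n = 6), a difference of -0.91 points. With the autosomal percentage of each animal subtracted, the Hoxc difference was -0.37 points (exact permutation test, adjusted p = 0.663). The subtraction removes a shift of highly methylated autosomes point for point. Whether clusters with little methylation share that shift was not tested, here or in the comparisons below.

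Before any subtraction the other clusters differed less between the strains than Hoxc. Hoxd had 10.2% ± 0.45 in B6 and 11.1% ± 0.42 in C3, a difference of -0.90 points (exact permutation test, adjusted p = 0.121). Without 1 animal the difference was -1.04 to -0.75. The -1.04, without B6 sire 3, had an adjusted p of 0.0303 (exact permutation test). All animals were kept for Hoxc in that adjustment, so this value cannot be set against the 0.0606 of Hoxc. With the autosomal percentage subtracted the Hoxd difference of all parents was 0.011 (exact permutation test, adjusted p = 0.985). Hoxa had 12.1% ± 0.64 and 12.4% ± 0.46, and Hoxb 13.5% ± 0.78 and 13.3% ± 0.36, with overlapping values. Hoxb was higher in B6 by 0.14 points (exact permutation test, adjusted p = 0.935) and, with the autosomal percentage subtracted, by 1.05 (adjusted p = 0.0404). Most of the 1.05 is the autosomal difference of -0.91 points with its sign turned. With the subtraction Hoxa turned from -0.23 to 0.68 (exact permutation test, adjusted p = 0.388). After it Hoxa and Hoxb were further apart between the strains than Hoxc.

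Whether the strain difference itself differed between clusters was tested within animals, a test added after the values were seen. Hoxb minus Hoxc was 5.22 ± 0.83 points in B6 and 3.80 ± 0.28 in C3 (SD, n = 6). The strains differed in it by 1.42 points (exact permutation test, adjusted p = 0.00433 over 6 pairs). The same adjusted p was found for Hoxa minus Hoxc, where the strains differed by 1.05, and for Hoxb minus Hoxd, where they differed by 1.04. Hoxa minus Hoxd differed by 0.67 (exact permutation test, adjusted p = 0.0325), and this call was lost without any 1 of 6 of the 12 parents, with an adjusted p of 0.0617 to 0.0649. These were B6 sire 2, B6 dams 1 and 3, C3 sire 2 and C3 dams 2 and 3. Hoxa minus Hoxb and Hoxc minus Hoxd did not pass.

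**Figure D4:**
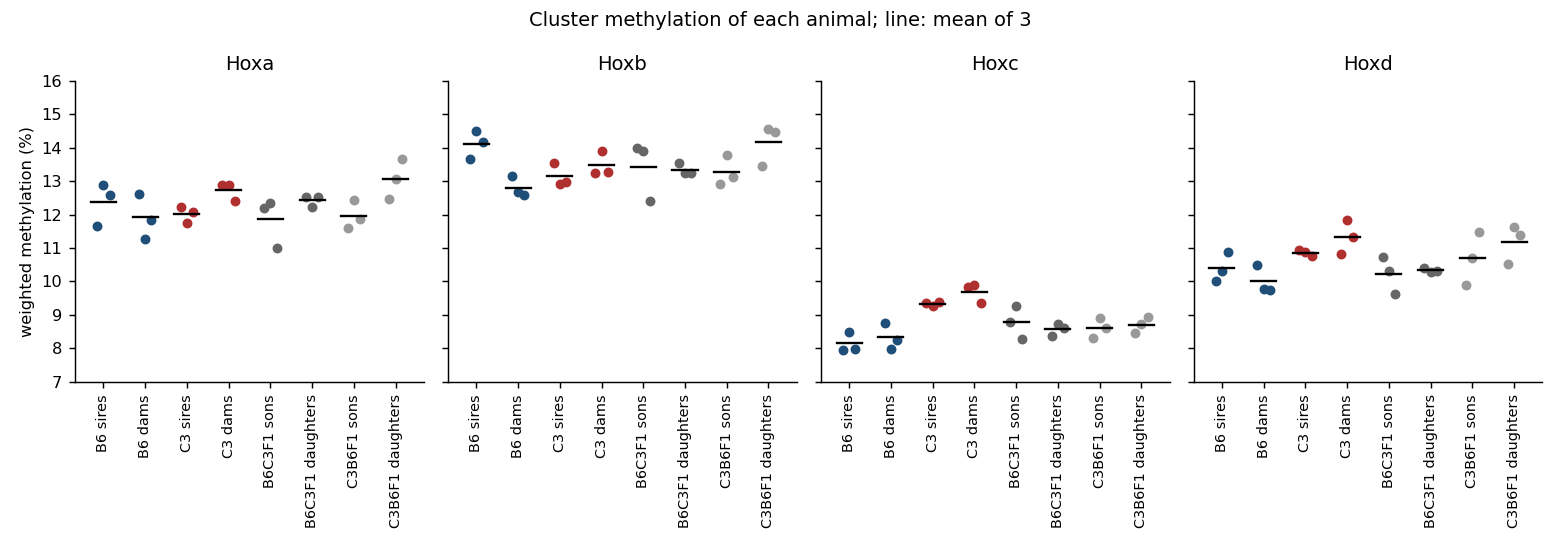
Weighted methylation (vertical axis, %, starting at 7) of each cluster in each of the 24 animals (points), by group, with a line at the mean of 3. In Hoxc the 6 C3 parents lie between 9.25% and 9.89%, above the 6 B6 parents at 7.96% to 8.75%.

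Listed single-base differences between the strains were sparse in the clusters, and none lay in Hoxc. Positions where B6 and C3 have different bases numbered 1.14 per kb over the autosomes, 0.245 in Hoxa, 0.194 in Hoxb and 0.0531 in Hoxd. The nearest to Hoxc lay 25216 bp past it. A few marker promoters differed between the strains, where 9.66% of all promoters did. The mean of the 4 leukocyte marker promoters was 78.9% to 83.1% in the B6 parents and 82.5% to 84.9% in the C3 parents, and 1 of 4 differed at an adjusted p below 0.05 (limma), higher in C3. The mean of the 8 hepatocyte marker promoters was 24.7% to 27.3% in B6 sires, 18.2% to 24.04% in B6 dams and 17.8% to 22.6% in C3 parents, and 2 of 8 differed, higher in B6. Of the tested promoters of 2 Kupffer cell, 4 endothelial, 4 stellate cell and 4 biliary markers none differed. The part of these in the Hox differences was not tested.

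Among the windows, 6 of 581 were called between the strains, at an adjusted p below 0.05 (limma, over 1456902 windows) and a difference of at least 10 points. The background was 2.39%, or 1.33% higher in C3. Whatever their p, 6 Hox windows differed by 10 points or more between the strains. In the comparisons below by sex, life stage, cross and mean of the parents it was 0, or 1 between sons and daughters. Of the 581 windows 330 had less than 10%, where a difference of 10 points would exceed the level itself. The part of the low level in these counts, and in those of Hox gene regions and promoters at 10 points, was not tested. At an unadjusted p below 0.05 (limma) there were 94 Hox windows (16.2%), against 18.9% of all windows. With no minimum difference 20 Hox windows passed, 18 of them higher in C3, where 6.63% of all windows passed and 4.29% were higher in C3. With a minimum of 20 points 1 Hox window was called, and 0.494% of all windows were. Of the 6 called windows 4 lay in Hoxa, 1 in Hoxc and 1 in Hoxd, and 5 were higher in C3. The Hoxa windows chr6:52134501-52135000 and chr6:52135501-52136000 lie on either side of the window that starts at chr6:52135001. That window had -9.45 points (limma, adjusted p = 0.0148), so this pair of calls lies in an unbroken stretch and is not separate results. None of the 6 held a listed single-base difference between the strains, and the nearest lay 899 bp (a Hoxa window) to 93990 bp (the Hoxc window) away. The list covers single bases, so longer differences in these windows were not read.

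The largest difference lay at chr6:52135501-52136000, outside exons, within the long transcript of Hoxa3 and within 2700086A05Rik, 6001 bp past the start of Hoxa4. The B6 sires had 18.7%, 14.7% and 13.3% and the B6 dams 23.96%, 14.7% and 24.2%. The C3 sires had 36.8%, 47.7% and 51.3% and the C3 dams 39.4%, 35.2% and 24.7%. The groups did not overlap, though the lowest C3 dam was close to the highest B6 dams. The difference was -20.9 points (limma, log2 ratio difference -1.53, SE 0.19, adjusted p = 5.92e-07). The 12 F1 animals had 18.3% to 27.9%, with a median of 22.04%.

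The counts behind this window were uneven between the strains. Its CpGs had 91 to 159 counts over the 6 B6 parents and 1 to 115 over the 6 C3 parents. Counts of the F1 animals were not split by parental allele. Whether C3 counts are also few in them, which would weigh their values toward B6, was not tested. When CpGs with at least 20 counts in each strain were weighed equally, a choice made after the data were seen, 8 of 11 CpGs remained and all 8 were higher in C3. B6 then had 22.0% ± 4.85 and C3 37.1% ± 7.15 (SD, n = 6), with overlapping ranges and a difference of -15.1 points (exact permutation test, p = 0.00866).

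The sequences of the called windows without an exon show which CpGs these are. The lines give mm9 from 5′ to 3′ in the direction of the cluster's genes, with CG in capitals. The first is chr6:52135502-52135801 on the minus strand and the second chr15:102799141-102799440 on the plus strand.
Hoxa3 intron: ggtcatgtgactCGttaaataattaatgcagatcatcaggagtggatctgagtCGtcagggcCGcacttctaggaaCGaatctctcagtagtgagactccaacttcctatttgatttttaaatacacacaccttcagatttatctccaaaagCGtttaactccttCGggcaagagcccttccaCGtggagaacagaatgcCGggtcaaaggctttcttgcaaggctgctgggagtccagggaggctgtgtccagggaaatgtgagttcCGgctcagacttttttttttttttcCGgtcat
Hoxc10 intron: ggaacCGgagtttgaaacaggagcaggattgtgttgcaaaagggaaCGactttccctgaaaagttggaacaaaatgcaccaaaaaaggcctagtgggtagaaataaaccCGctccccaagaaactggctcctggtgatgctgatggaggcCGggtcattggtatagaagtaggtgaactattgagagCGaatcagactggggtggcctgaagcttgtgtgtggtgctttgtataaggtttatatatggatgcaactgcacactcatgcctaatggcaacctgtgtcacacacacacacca
In the Hoxa3 stretch 9 of the 10 CG are in the count files. At the CG at base 201 B6 had 159 counts and C3 had 1. At base 63 B6 had 35.8% in 137 counts and C3 46.8% in 79, and at base 153 B6 had 4.13% in 121 and C3 23.7% in 38. In the Hoxc10 stretch all 5 CG were higher in C3, with differences, B6 minus C3, of -8.33 to -17.3 points. Its CG at base 6 had 30.1% in 193 counts of B6 and 47.3% in 188 counts of C3.

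The Hoxc10 window, chr15:102799001-102799500, lay 2023 bp past the start of Hoxc10, a gene of the lumbar region. The B6 sires had 21.4%, 25.3% and 22.1% and the B6 dams 27.1%, 20.6% and 20.8%. The C3 sires had 34.2%, 44.6% and 31.5% and the C3 dams 27.7%, 36.3% and 25.7%. The lowest C3 dam lay below the highest B6 dam. The difference was -10.4 points (limma, log2 ratio difference -0.73, SE 0.18, adjusted p = 0.00712). It fell under 10 points, so that the call was lost, without any 1 of 4 animals. It was -9.88 without B6 dam 2, -9.94 without B6 dam 3, -8.48 without C3 sire 2 and -8.84 without C3 dam 2.

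A pair of further Hoxa3 windows was also higher in C3. At chr6:52134501-52135000, overlapping an exon of Hoxa3, B6 had 54.1% ± 6.10 and C3 71.6% ± 3.49 (SD, n = 6), without overlap (limma, adjusted p = 9.02e-06). At chr6:52130501-52131000, overlapping exons of Hoxa3 and 5730596B20Rik, B6 had 65.7% ± 4.42 and C3 76.9% ± 5.57, with overlap (limma, adjusted p = 0.00712). This last call was lost when the reads of every animal were thinned to 1 depth, with a difference of -9.54 points and an adjusted p of 0.0604. It was also lost without B6 sire 1, at -9.96 points, and without C3 sire 2, at -9.63.

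At Hoxd1 the window chr2:74602001-74602500 overlapped an exon, 1213 bp past the start. B6 had 49.4% ± 2.89 and C3 62.3% ± 4.31 (SD, n = 6), without overlap, and all 11 CpGs were higher in C3 (limma, adjusted p = 0.000314). At Hoxa7 the window chr6:52170001-52170500 overlapped an exon, 1602 bp past the start, and went the other way. B6 had 47.1% ± 6.50 and C3 33.1% ± 4.63, without overlap, and all 16 CpGs were higher in B6 (limma, adjusted p = 0.00101). The gene regions of Hoxd1 and Hoxa7 were not among those that differed, at adjusted p = 0.159 and 0.201 (limma).

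**Figure D5:**
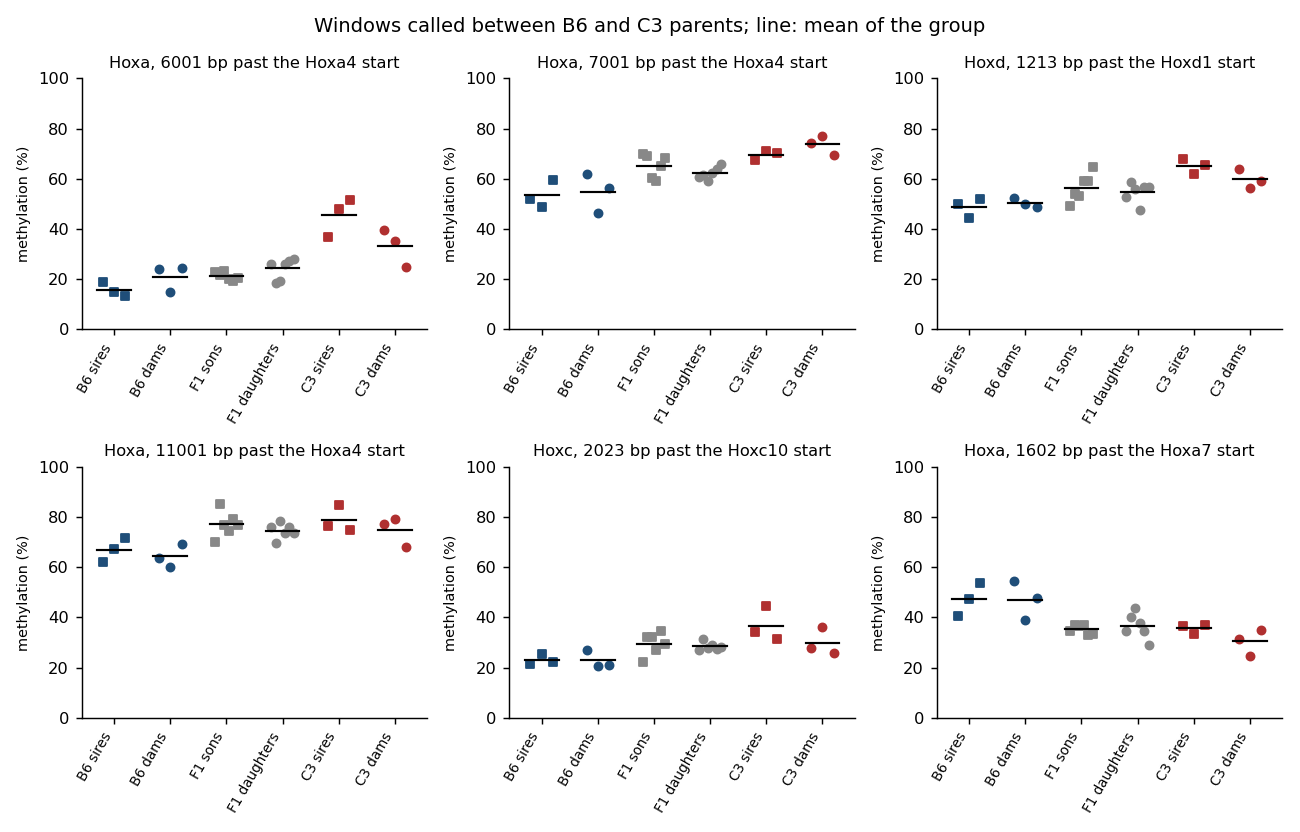
Methylation (vertical axis, %) of each animal in the 6 windows called between the strains, with B6 parents in blue, C3 parents in red, F1 animals in grey, squares for males, circles for females and a line at each mean. The C3 mean lies above the B6 mean in 5 of the 6 windows, and the means of the 12 F1 animals run from 22.6% to 75.9%.

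At promoters 4 of 39 Hox genes differed between the strains at an adjusted p below 0.05 (limma), all higher in C3. The background was 9.66%, or 6.13% higher in C3. None reached 10 points, as 1.75% of all promoters did, and 7 Hox promoters had an unadjusted p below 0.05, against 21.7% of all promoters. The Hoxc4 promoter had 20.5% to 29.2% in B6, with a median of 22.9%, and 23.96% to 44.4% in C3, with a median of 30.7% (limma, log2 ratio difference -0.60, SE 0.15, adjusted p = 0.00708). The strains overlapped, and the animals had 192 to 403 counts there. Its means were 25.0% in B6 sires and 27.0% in C3 sires, and 21.7% in B6 dams and 36.7% in C3 dams. The Hoxb2 promoter, of a gene of the hindbrain, had 15.7% ± 1.77 in B6 and 22.0% ± 3.79 in C3 (SD, n = 6). The other genes were Hoxd10, with 6.20% ± 0.93 and 8.95% ± 1.31, and Hoxb9, with 2.43% ± 0.42 and 3.61% ± 0.41.

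Some windows varied among animals without a call. At the Hoxc4 start, chr15:102849001-102849500, group means ran from 20.3% in B6C3F1 sons to 42.3% in C3 dams, and C3 dam 1 had 53.0%. It also had the largest SD within groups, 7.29 points. Next came 6.29 points at chr6:52151001-52151500, overlapping an exon of 2700086A05Rik, and 6.21 points at chr11:96190001-96190500 in an intron of Hoxb3.

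Sex was compared between sires and dams and between F1 sons and virgin daughters. The dams had borne and nursed litters, so between sires and dams sex cannot be told apart from breeding. No Hox window was called in either (limma), with a background of 0.573% and 0.255%. At an unadjusted p below 0.05 there were 36 (6.20%) and 40 (6.88%) of the 581 windows, against 11.6% and 7.02% of all windows, and a quasi-binomial test called 0 in both. The lowest adjusted p was at chr2:74510001-74510500, between Hoxd13 and Hoxd12, 8.71 points higher in sires (limma, adjusted p = 0.0621). Without B6 sire 1 it was 10.8 points with an adjusted p of 0.0161, and without B6 dam 1 it was 10.1 points with an adjusted p of 0.0402. Without B6 sire 3 a window of Hoxb at chr11:96186501-96187000 was called, at 11.5 points (limma, adjusted p = 0.0363). Between sons and daughters 1 window, at chr11:96225001-96225500 upstream of Hoxb1, was called without C3B6F1 daughter 2, at 10.9 points (limma, adjusted p = 0.0218).

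As clusters, Hoxa had 11.9% ± 0.54 in sons and 12.8% ± 0.53 in daughters (SD, n = 6), a difference of -0.84 points (exact permutation test, adjusted p = 0.121). Without C3B6F1 son 1 it was -0.78 (adjusted p = 0.222), and without B6C3F1 son 3, which had the lowest Hoxa value, it was -0.66 (adjusted p = 0.263). With the autosomal percentage subtracted it was -1.23 (exact permutation test, adjusted p = 0.0404). Hoxd differed by -0.30 between sons and daughters (exact permutation test, adjusted p = 0.816) and by -0.036 between sires and dams (adjusted p = 0.937). Without 1 animal the first was -0.51 to -0.13, with -0.19 without C3B6F1 son 1, and the second turned, at -0.22 to 0.20. With the subtraction these were -0.69 (exact permutation test, adjusted p = 0.0455) and -0.89 (adjusted p = 0.0404), where the autosomes themselves were 0.39 points higher in sons and 0.85 higher in sires. Between sires and dams Hoxc and Hoxa then had -1.12 (exact permutation test, adjusted p = 0.0505) and -0.98 (adjusted p = 0.144), from -0.27 and -0.13 without the subtraction. Hoxb turned from 0.48 (exact permutation test, adjusted p = 0.747) to -0.37 (adjusted p = 0.649) between sires and dams, and moved from -0.41 (adjusted p = 0.816) to -0.80 (adjusted p = 0.0505) between sons and daughters. Without the subtraction, in Hoxb the B6 sires had 14.1% ± 0.42 (SD, n = 3) and the B6 dams 12.8% ± 0.31, without overlap, while the C3 sires had 13.1% ± 0.34 and the C3 dams 13.5% ± 0.36. That dependence on strain was not tested for whole clusters. For windows it was called at 0 of 581 by limma and by the quasi-binomial test, with 26 at an unadjusted p below 0.05, where 5.42% of all windows were, and a background of 0.00178%.

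Life stage and generation were compared between dams and virgin daughters and between sires and sons. No Hox window was called (limma), with a background of 0.136% and 0.00968%. There were 33 and 24 windows at an unadjusted p below 0.05, against 7.94% and 6.26% of all windows, and the quasi-binomial test called 0. Without C3 dam 2 a window at chr11:96152001-96152500 in Hoxb was called between dams and daughters, at -11.6 points (limma, adjusted p = 0.0154). Before any subtraction the largest difference of a cluster between dams and daughters was in Hoxb, with 13.1% ± 0.47 in dams and 13.8% ± 0.61 in daughters (SD, n = 6, exact permutation test, adjusted p = 0.497). With the autosomal percentage subtracted, Hoxb changed from -0.62 to -0.24 (exact permutation test, adjusted p = 0.649) and Hoxc from 0.37 to 0.75 (adjusted p = 0.0779).

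The reciprocal crosses have the same autosomal strains in opposite parents. Between B6C3F1 and C3B6F1 no Hox window was called by limma or the quasi-binomial test, with 27 at an unadjusted p below 0.05, where 6.69% of all windows were, and a background of 0.00178%. Hoxd had 10.3% ± 0.36 in B6C3F1 and 10.9% ± 0.68 in C3B6F1 (SD, n = 6, exact permutation test, adjusted p = 0.497). The difference of -0.65 points was -0.86 without C3B6F1 son 1 (exact permutation test, adjusted p = 0.0808). The autosomes differed in the same direction, by -0.34 points. Between F1 animals and the mean of the parents no Hox window was called by either test, with 24 at an unadjusted p below 0.05, where 7.18% of all windows were, and a background of 0.0491%. Cluster means of the 12 F1 animals differed from those of the 12 parents by -0.21 points in Hoxc, and by -0.29 to -0.12 without 1 animal, and by 0.17 points in Hoxb, and by 0.080 to 0.28 without 1 animal (permutation test, adjusted p = 0.816 for each). The autosomes differed by 0.15 points in this comparison.

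In these comparisons other than strain, no Hox gene region or promoter passed an adjusted p of 0.05 (limma). The background of gene regions was 13.4% between sires and dams, 0.577% between sons and daughters, 0.847% between dams and daughters, 0.00473% between sires and sons, 0.0189% between the crosses and 0.17% between F1 animals and the mean of the parents. That of promoters was, in the same order, 0.482%, 0.204%, 0.0942%, 0.0366%, 0.0209% and 0.157%. At an unadjusted p below 0.05 there were 1, 6 and 5 Hox gene regions in the first 3, against 24.6%, 9.21% and 14% of all regions, and 2, 4 and 2 Hox promoters, against 8.29%, 5.72% and 6.46% of all promoters.

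Genes that act on Hox genes or with Hox proteins were read from fixed lists, against 58.8% of all promoters below 10%. Of 16 genes of Polycomb complexes 13 had promoters below 10%, with a median of 0.384%. Among them were Ezh2, the enzyme that methylates histone H3, at 0.300% ± 0.18 (SD, n = 24), while Cbx7 had 92.5% ± 1.48. Of 5 Trithorax genes, which keep Hox genes active, 3 were below 10%. Of 9 TALE homeobox genes, whose proteins bind DNA together with Hox proteins, 8 were below 10%, and Pbx2 had 43.2% ± 5.69. Between the strains 1 of 16, 0 of 5 and 1 of 9 of these promoters differed at an adjusted p below 0.05 (limma), both higher in C3, against 9.66% of all promoters. Of gene regions 5 of 16, 2 of 5 and 4 of 9 differed, of which 1 Polycomb and 1 TALE gene were higher in B6, against 28% of all gene regions.

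A list of 11 homeobox genes outside the clusters had a median gene region of 9.82%, from 5.21% in Mnx1, a gene of motor neurons, to 67.9% in Cdx1, a gene of the gut. Evx1, which lies beside Hoxa, had 10.4% ± 0.94 (SD, n = 24) and Evx2, beside Hoxd, 8.61% ± 0.85. Between the strains 8 of 11 gene regions differed at an adjusted p below 0.05 (limma), 7 of them higher in C3, and none by 10 points, against 28%, 23.8% and 0.516% of all gene regions. In the other comparisons no promoter or gene region of these 4 lists passed.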

How the data were processed

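Liver DNA of 24 mice was analysed, 3 in each of 8 groups named in the labels. The 12 ChIP and input samples were not analysed here. The authors deposited counts of methylated and unmethylated reads per CpG and animal, and a list of single bases that differ between B6 and C3. They used Bismark 0.7.8 with Bowtie 0.12.8 on mm9, filtered on base quality, removed duplicates with Bismark, clipped read 2 and overlapping mates, and kept CpGs present in mm9 and both strains. All reads were aligned to mm9, so C3 reads can map less well where the strains differ.

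Counts were summed over 500-bp windows with at least 5 CpGs and 30 counts in every animal, over gene regions and over promoters. Log2 of (methylated + 1)/(unmethylated + 1) was fitted with limma 3.58.1 in R 4.3.3 on 8 group means with trended robust variance, and p-values were adjusted over all autosomal features (Benjamini-Hochberg). Windows were called where the adjusted p was under 0.05 and the groups differed by 10 percentage points or more. The study's own callers of differential methylation were not used. Cluster values were tested by exact permutation (100000 resamples for 12 against 12 animals, and sign flips for cluster pairs), adjusted over 28 tests or 6 pairs. For the 28 tests, an adjusted p without 1 animal was taken with all animals kept in the other tests. The scripts were tested on simulated data.

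Named were the 2 highest and 2 lowest genes of each cluster by gene region and by promoter, up to 3 called windows per direction, the 5 windows with the largest range of group means and the 3 with the largest SD. Genes that passed at adjusted p below 0.05, the called windows beyond 3 per direction, high windows, long runs and windows called without 1 animal were named after their values were seen. The values of 1 Hox gene are not reported here, and it enters only counts and summaries. The members and gene lists were chosen with earlier results of these data known. Total autosomal counts ran from 365740739 to 619888157 per animal. Intervals between animals rest on 3 animals per group. Alternatives were other pseudocounts, scales, tests, tilings, minimums and depths, a replicate term, and each animal left out.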

Additional observations from a re-analysis of the deposited data

Results flagged for a closer look

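In 48 groups of 4 to 10 animals the highest or lowest animal was compared with its neighbours, and chance alone marks about 1 group in 20. For Hoxa methylation in the 6 B6C3F1 animals, son 3 lay far below the others, at 11.01% against 12.21% to 12.54%, a gap of 0.784 of the whole range. For the depth of chromosome X relative to the autosomes in the F1 sons, C3B6F1 son 1 lay far above the others, at 0.5999 against 0.4922 to 0.5208, a gap of 0.735 of the range.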

How the results depend on the processing

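The 6 windows called between B6 and C3 became 1 at a minimum of 20 points and 20 with no minimum, and were 5 to 9 when 1 animal was left out. The Hoxc10 window was then -11.75 to -8.48 points, with the call lost without any 1 of 4 animals, and the window overlapping exons of Hoxa3 and 5730596B20Rik -12.9 to -9.63, with the call lost without any 1 of 2. With no minimum, 11 Hox gene regions and 4 promoters passed in place of 0. The count of gene regions higher in C3 was 8 to 13 without 1 animal, and 7 to 9 in Hoxc. Left-out animals gave 0 to 1 called windows between sires and dams, between sons and daughters, and between dams and daughters, and 0 in the others. With the autosomal percentage subtracted, 4 cluster differences passed: Hoxb between strains at 1.05, Hoxa between sons and daughters at -1.23, and Hoxd at -0.89 between sires and dams and -0.69 between sons and daughters, where the unsubtracted Hoxd values were -0.036 and -0.30 and the autosomes differed by 0.85 and 0.39. Between the strains, where the autosomes differed by -0.91, the subtraction left 0.011 for Hoxd and moved Hoxb from 0.14 to 1.05. The Hoxd strain difference was -1.04 to -0.75 without 1 animal. Hoxa minus Hoxb turned to 1.32 on gene bodies alone. The causes were not tested. With replicate number as a block 6 windows were called between the strains, 0 in the other comparisons, and 11 gene regions were higher in C3, 8 of them in Hoxc. The 84 same-numbered pairs correlated at -0.0088 to 0.065, against -0.035 to 0.018 for pairs of other numbers. Of the 24 animals 20 were most alike to one of their own number, so same-numbered animals were more alike, though the correlations were small. What they share, such as a family, is not given in the labels and was not tested. As 0 pairs were above 0.1, the numbers were not used as pairs in the main tests. The permutation tests of clusters given here had no such block and take the animals as independent of their number. Depth limits the values of single CpGs, and low counts of C3 reads limit the window near Hoxa4.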
